A study of Mus musculus with 6 samples.

Results

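The 33 genes described here serve cholesterol synthesis, cholesterol storage and efflux, and fatty acid synthesis. They were chosen by gene symbol, with earlier results of these data known, and matched by Ensembl identifier through GENCODE vM21. They are 33 of the 21780 features of the count table. All 33 were among the 14429 genes tested. They are 17 enzymes of sterol synthesis, 3 genes of the SREBP system, a sterol carrier and an esterifying enzyme, the 2 liver X receptors (LXRs), 4 LXR target genes for efflux, lipid carriage and receptor degradation and 5 genes of fatty acid synthesis. Not every enzyme of these routes is among them.

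The study asked how whole β-glucan particles (WGP), hollow particles of yeast cell wall, change the myeloid cells of the mouse pancreas. Wild-type C57BL/6J mice of both sexes, aged 6 to 8 weeks, received 1 mg of WGP in PBS or PBS alone by intraperitoneal injection, with 3 libraries in each group. On day 7 the pancreata were digested and live cells positive for CD45, found on all leukocytes, and for CD11b, an integrin of myeloid cells, were sorted for RNA-Seq. All mice carried an unmodified genotype, and no tumor or second stimulus was part of this experiment. By the study's account each sample stood for a separate animal of 1 experiment, and the sex behind each library was not stated.

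Cells make cholesterol from acetyl-CoA through mevalonate and squalene. The transcription factor SREBP2 drives these enzymes and SREBP1 drives fatty acid synthesis, and the INSIG proteins hold both back when sterols are plentiful. The LXRs sense oxysterols and switch on genes that move cholesterol out of the cell, a route macrophages rely on after they take up particles and dead cells.

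The libraries held 35334645 to 43341834 counts, and the counts of a member in a library ran from 82 to 577202. Levels are given as CPM, the share of a library's counts scaled by TMM, and levels of different genes are compared only after division by exon length in kilobases. The sorted cells carried the markers of the gate, since the summed level of Ptprc and Itgam was 1203 to 1231 CPM in PBS and 1925 to 2135 CPM in WGP. Lists of markers of other cell types also differed between the groups. The 9 markers of resident macrophages all fell, from a summed 5649 to 14283 CPM to 1187 to 1372 CPM, and 5 of 7 markers of Ly6C-high monocytes rose, from a summed 707 to 1171 CPM to 3483 to 3787 CPM. A list of 8 general macrophage markers summed to 8844 to 15835 CPM in PBS and 6951 to 8908 CPM in WGP, with 1 marker up and 2 down. Of the cells outside the gate, the 10 acinar markers all fell, from 1554 to 5911 CPM to 404 to 675 CPM, and the 6 B cell markers all fell, from 378 to 2499 CPM to 89.1 to 177 CPM. Within PBS, replicate 1 had the lowest resident macrophage sum and the highest B cell and neutrophil sums. PBS replicate 2 had the highest acinar sum, 5911 CPM against 2487 CPM in replicate 1 and 1554 CPM in replicate 3. WGP replicate 2 had a fibroblast sum of 1817 CPM against at most 175 CPM in the other libraries. Of the 7 neutrophil markers only 1, Cxcr2, passed the test given below, and it rose. The median log2 fold change of the neutrophil list was -0.77. Its sums were 866 to 3488 CPM in PBS and 1191 to 1411 CPM in WGP. No eosinophil marker passed, and the sums for islet cells and adipocytes were at most 5.81 CPM, with Ppy and Lep at 0. The remaining lists were conventional dendritic cells with 2 of 7 markers down, T cells with 1 of 6 up, NK cells with 1 of 6 down, endothelial cells with 1 of 5 up and fibroblasts with none of 6 past the test. The part of these lists in the results was not tested, and in bulk samples fewer cells of a type and less RNA per cell cannot be told apart.

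**Figure D1:**
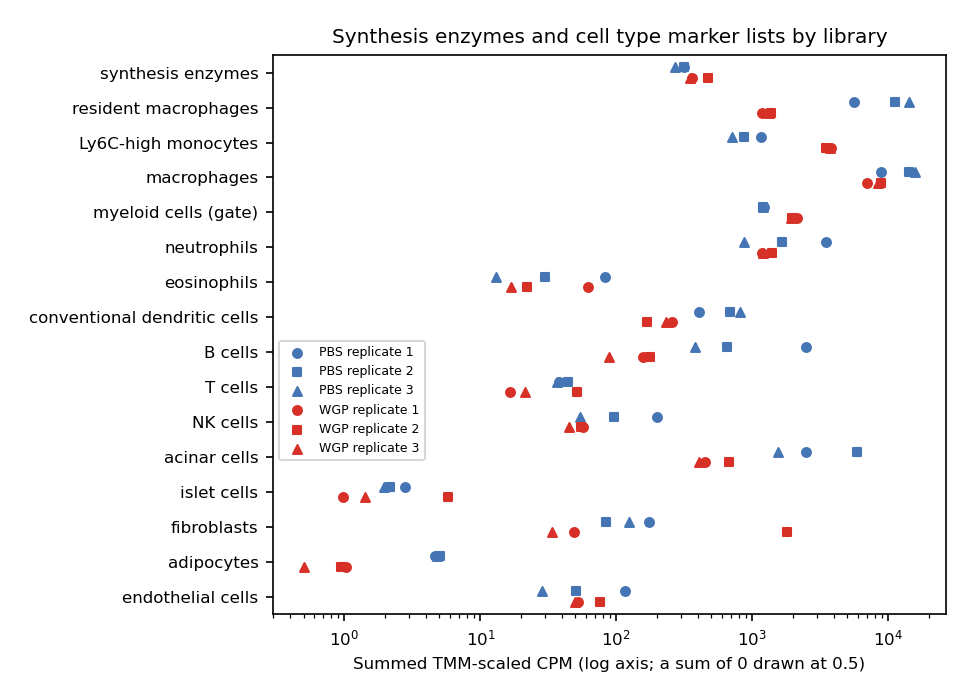
Summed TMM-scaled CPM (log axis) of the 17 sterol synthesis enzymes and of each marker list, with 1 point per library, blue for PBS and red for WGP. The enzymes' sum moved little beside the resident macrophage list, which was 5649 to 14283 CPM in PBS and 1187 to 1372 CPM in WGP.

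Across the 33 genes, 7 rose and 2 fell in WGP in edgeR's quasi-likelihood test, where the limit on the p-value, adjusted by Benjamini and Hochberg's method over all genes tested, was 0.05, and 24 did not pass. Those that rose were Nr1h3, Soat1, Mvd, Msmo1, Abcg1, Hmgcs1 and Srebf1, and those that fell were Apoe and Mylip. Of all genes tested, 7.54% rose and 6.81% fell by the same rule. With a log2 fold change of at least 1 as well, 5 members were called higher and 2 lower, against 4.53% and 4.96% of all genes. All 3 WGP libraries lay above all 3 PBS libraries for 12 members and below them for 5, against 16.0% and 16.1% of all genes. The median log2 fold change was 0.31 over the members and -0.05 over all genes tested. Of the 7 rises, only those of Nr1h3, Soat1 and Abcg1 held under every alternative setting that was run. The count of rises was 3 without PBS replicate 2, WGP replicate 1 or WGP replicate 2 and 4 without PBS replicate 3, and the count of falls was 4 without PBS replicate 3.

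**Figure D2:**
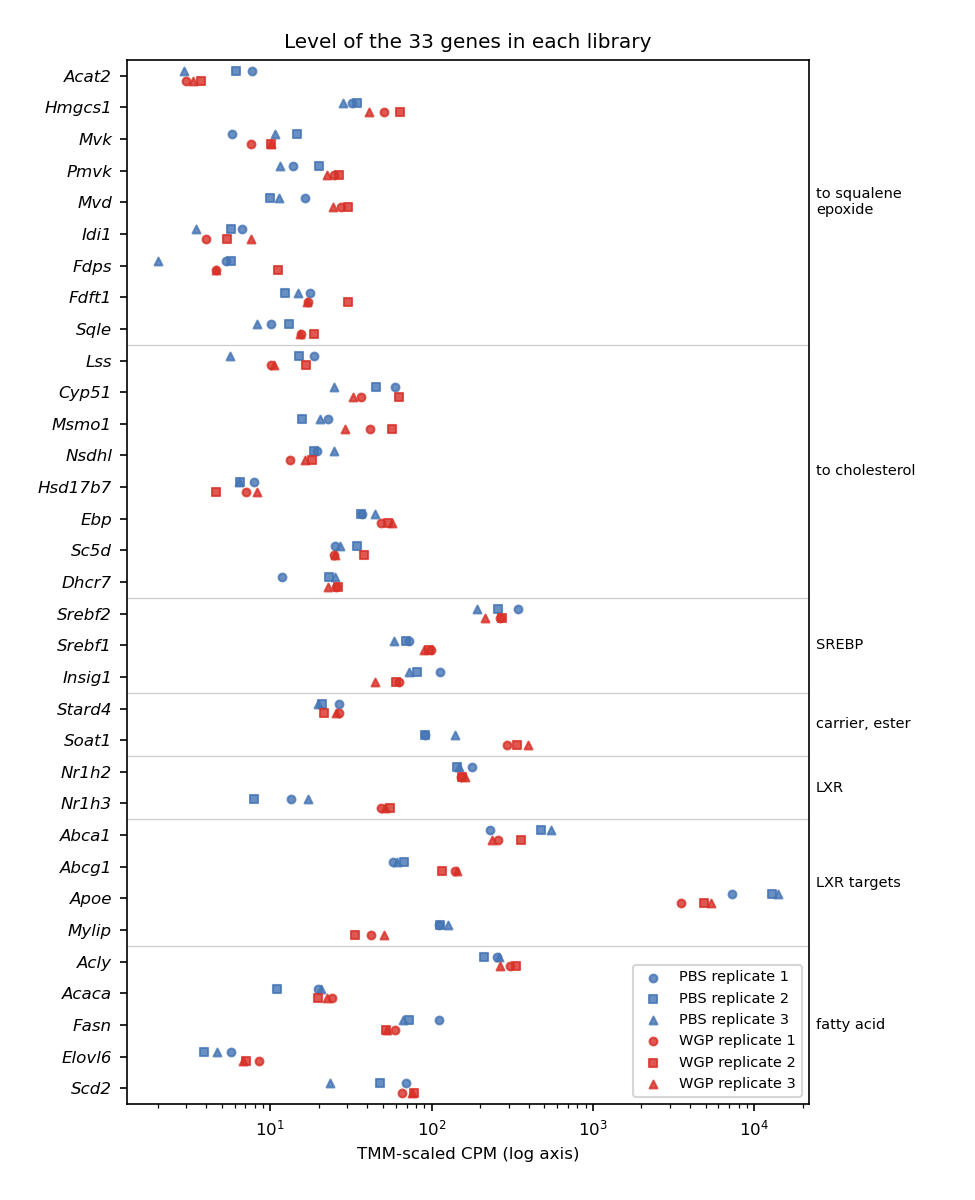
Level of each of the 33 genes in each library, in TMM-scaled CPM on a log axis, grouped by role, with blue for PBS and red for WGP and a symbol for each replicate. The red and blue points stand apart for Soat1, Nr1h3, Abcg1, Apoe and Mylip, and they mix for most of the synthesis enzymes, such as Idi1, Cyp51 and Sc5d.

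The 9 enzymes from acetyl-CoA to the epoxidation of squalene included 2 that rose, Hmgcs1 and Mvd, and 7 that did not pass the test. Of all genes tested 7.54% rose and 6.81% fell. Hmgcs1 (ENSMUSG00000093930, chr13:119690379-119708260 in GRCm38) makes HMG-CoA at the head of the route, and its level was 31.9, 34.5 and 28.3 CPM in PBS and 50.7, 63.7 and 40.7 CPM in WGP. The groups did not overlap, and the highest library was WGP replicate 2. The level rose 1.64-fold, from 31.6 ± 3.1 to 51.7 ± 11.5 CPM (SD, n = 3), a log2 fold change of 0.71 with a standard error of 0.21 and an adjusted p of 0.0471 in edgeR. This call stood close to the threshold, with an adjusted p of 0.0361 to 0.162 over the alternatives, and it was lost without any 1 of PBS replicates 1, 2 and 3 and WGP replicates 1 and 2, with RLE size factors (0.0517), with library totals only (0.0882), with limma-voom (0.0623) and without both PBS replicate 1 and WGP replicate 2 (0.138).

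Mvd (ENSMUSG00000006517, chr8:122433601-122443422) decarboxylates mevalonate diphosphate to the first isoprenoid unit. Its level was 16.49, 10.01 and 11.34 CPM in PBS and 27.5, 30.1 and 24.5 CPM in WGP. Every WGP library lay above every PBS library, and the level rose 2.17-fold, from 12.6 ± 3.42 to 27.4 ± 2.85 CPM (SD, n = 3), a log2 fold change of 1.12 with a standard error of 0.27 and an adjusted p of 0.0191 in edgeR. Without PBS replicate 2 the adjusted p was 0.0791, without PBS replicate 3 it was 0.0578, and without WGP replicate 1 or 2 it was 0.0654 or 0.0522.

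The other 7 enzymes of this stretch had log2 fold changes from -0.75 to 0.70. Pmvk, which adds the second phosphate to mevalonate, was at 13.8, 20.0 and 11.5 CPM in PBS and 24.6, 26.5 and 22.5 CPM in WGP. Sqle, the squalene epoxidase that limits the later steps, was at 10.1, 13.1 and 8.23 CPM in PBS and 15.5, 18.5 and 15.2 CPM in WGP. In both genes the groups did not overlap, but the adjusted p values were 0.129 and 0.213, with log2 fold changes of 0.70 (SE 0.27) and 0.65 (SE 0.31). Fdps and Fdft1, which build farnesyl diphosphate and squalene, had log2 fold changes of 0.65 (SE 0.63) and 0.52 (SE 0.31), with overlapping groups and their highest values, 11.2 and 30.3 CPM, in WGP replicate 2. Fdps shares 26.7% of its exon length with the gene model Gm43738 on the same strand, and Fdft1 shares 18.3% with Ctsb on the opposite strand. How reads in these shared stretches were counted is not known. Mvk, the mevalonate kinase, Idi1, which isomerizes the first isoprenoid unit, and Acat2, a cytosolic thiolase, had log2 fold changes of -0.16 (SE 0.41), 0.10 (SE 0.55) and -0.75 (SE 0.62). Their intervals of 2 standard errors all spanned 0, and all 3 stayed at or below 14.6 CPM in every library.

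Of the 8 enzymes from squalene epoxide to cholesterol, 1 rose and 7 did not pass. This is near the shares of all genes tested, of which 7.54% rose and 6.81% fell. Msmo1 (ENSMUSG00000031604, chr8:64718139-64733792), which oxidizes the methyl groups at carbon 4 of the sterol ring, was at 22.8, 15.8 and 20.2 CPM in PBS and 41.6, 56.6 and 28.8 CPM in WGP. The groups did not overlap and the WGP libraries spread more widely than the PBS libraries. The level rose 2.16-fold, from 19.6 ± 3.53 to 42.3 ± 13.9 CPM (SD, n = 3), a log2 fold change of 1.11 with a standard error of 0.27 and an adjusted p of 0.0214 in edgeR. It did not pass without PBS replicate 2 (adjusted p 0.0923), WGP replicate 1 (0.0630) or WGP replicate 2 (0.0759).

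Nsdhl, which acts just after Msmo1 in the removal of those methyl groups, was at 19.5, 18.6 and 24.8 CPM in PBS and 13.3, 18.1 and 16.4 CPM in WGP. The WGP libraries were all below the PBS libraries, with a log2 fold change of -0.40 (SE 0.26) and an adjusted p of 0.377 in edgeR. Hsd17b7, the reductase of the same step, had a log2 fold change of -0.06 (SE 0.45). Ebp, the sterol isomerase, had the highest level per kilobase of the 17 enzymes, 17.0 CPM per kb in PBS and 23.0 in WGP, and was at 37.1, 36.3 and 44.5 CPM in PBS and 48.6, 53.6 and 57.0 CPM in WGP. The groups were separate, but its log2 fold change of 0.43 (SE 0.18) had an adjusted p of 0.144. Lss, which closes the ring, Cyp51, the lanosterol demethylase, Sc5d, the desaturase, and Dhcr7, the reductase of the final steps, had log2 fold changes of -0.08, 0.03, 0.02 and 0.31 and adjusted p values of 0.551 to 0.977. In these 4 genes the groups overlapped, with Cyp51 for instance at 24.8 to 59.3 CPM in PBS and 32.5 to 62.5 CPM in WGP.

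Taking the 17 enzymes as 1 route, 12 had a higher and 5 a lower fitted level in WGP, and 3 rose and 0 fell at the adjusted p. Of all genes 7.54% rose and 6.81% fell, so no fall among 17 is near the background, and the median log2 fold change was 0.31. Their summed level was 318, 317 and 272 CPM in PBS and 362, 476 and 347 CPM in WGP. The sums did not overlap, and WGP replicate 2, the library with the high fibroblast sum, was the highest. The differences between Hmgcs1, Mvd and Msmo1 and the 14 steps that did not pass were not tested.

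**Figure D3:**
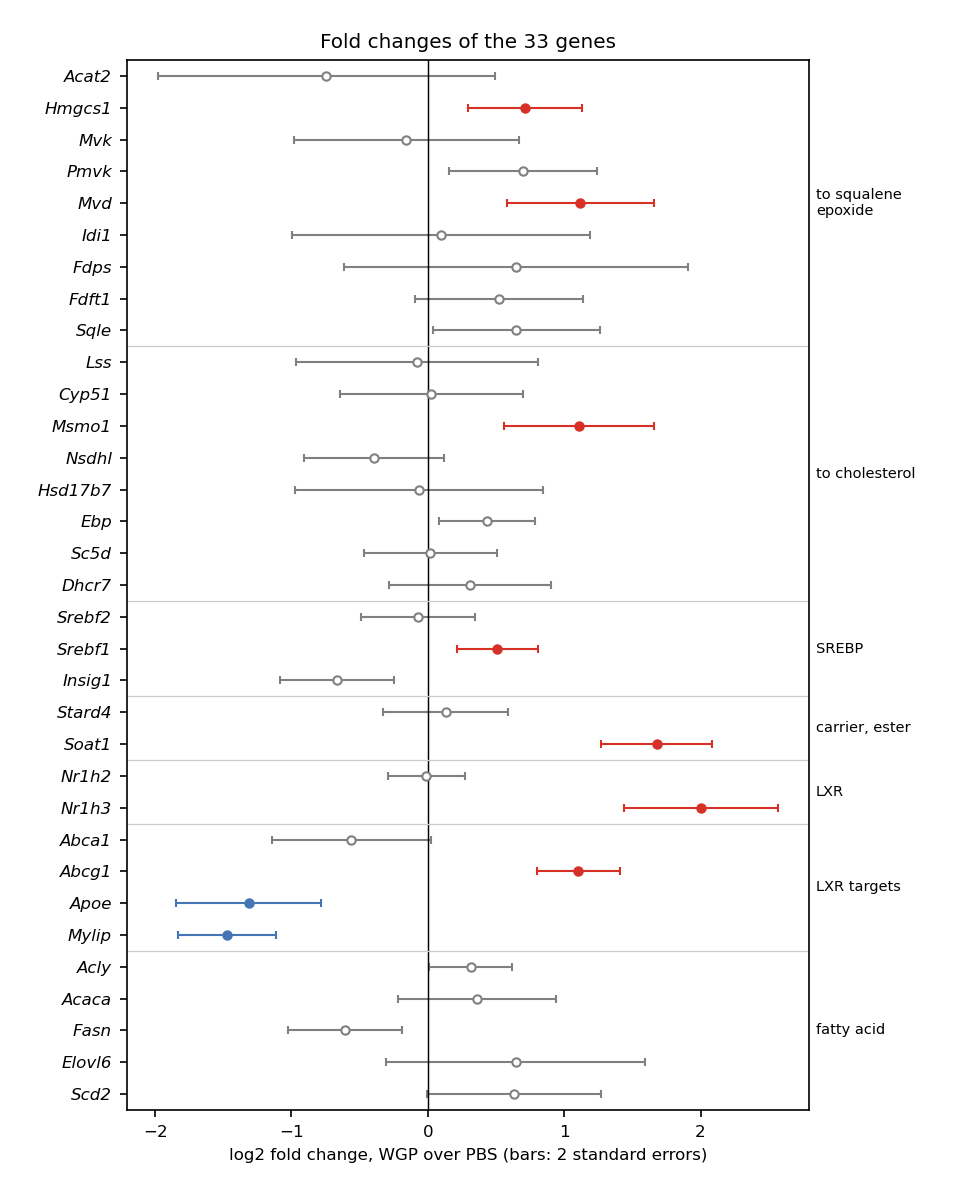
Log2 fold change of WGP over PBS for each member, grouped by role, with bars of 2 standard errors and filled points, red for higher and blue for lower, where the edgeR adjusted p was at most 0.05. The 7 red points include 3 of the 17 synthesis enzymes, and both blue points, Apoe and Mylip, lie among the LXR targets.

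Promoter sequence is shown for the 3 synthesis enzymes that rose, to show which letters linked to sterol control they share. RefSeq windows of GRCm38.p6, from 250 bases before to 50 bases after the start, were found for 27 of the 33 members, and not for Abcg1, Stard4, Sqle, Scd2, Fdft1 and Fdps. Hmgcs1 was the only member whose window held the core of the sterol regulatory element TCACNCCAC, the letters SREBPs are known to bind, beginning 137 bases before the start, and 1.44% of 27025 genes have this core on either strand. CCAAT, the box of the NF-Y factor, was in 20 of the 27 members with a window and in 41.1% of all genes, searched on both strands. Mvd and Msmo1 were added after their values were seen. The 250 bases before each start are given 5′ to 3′ on the strand of the gene, with the matches to TCACNCCAC and to CCAAT or its reverse complement in capitals, at chr13:119690101-119690350 (plus strand) for Hmgcs1, chr8:122443423-122443672 (minus strand) for Mvd and chr8:64733579-64733828 (minus strand) for Msmo1.
Hmgcs1: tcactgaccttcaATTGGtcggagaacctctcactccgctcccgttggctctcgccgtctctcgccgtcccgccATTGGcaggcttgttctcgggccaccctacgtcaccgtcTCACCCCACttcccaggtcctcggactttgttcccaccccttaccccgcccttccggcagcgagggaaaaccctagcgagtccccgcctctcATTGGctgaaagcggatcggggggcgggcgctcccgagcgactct
Mvd: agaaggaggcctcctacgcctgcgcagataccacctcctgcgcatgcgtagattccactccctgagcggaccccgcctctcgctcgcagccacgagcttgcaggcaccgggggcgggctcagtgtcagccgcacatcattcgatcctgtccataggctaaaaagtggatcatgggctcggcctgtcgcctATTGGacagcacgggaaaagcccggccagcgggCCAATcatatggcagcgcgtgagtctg
Msmo1: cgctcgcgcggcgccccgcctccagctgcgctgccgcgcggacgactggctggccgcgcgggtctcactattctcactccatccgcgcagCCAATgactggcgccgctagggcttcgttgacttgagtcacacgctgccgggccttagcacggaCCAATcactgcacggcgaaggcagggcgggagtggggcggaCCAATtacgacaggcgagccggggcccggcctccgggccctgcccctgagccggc
In these stretches Hmgcs1 has 3 matches to CCAAT, all on the reverse strand, Mvd has 1 on each strand and Msmo1 has 3 on the strand of the gene. The E-box CACGTG was in the windows of 5 of 27 members, Abca1, Dhcr7, Hsd17b7, Insig1 and Sc5d, and in 8.09% of all genes, and none of these 5 passed the test. A pair of AGGTCA copies spaced by 4 bases, the letters of an LXR element, was in 0 of 27 members and in 0.0148% of all genes. With the repeat in 0.0148% of all genes, 0 of 27 members could hardly have come out otherwise, and nothing is read from it. A match describes letters and not a bound site, and its absence speaks only of these exact letters in this window.

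Within the SREBP system 1 of 3 genes, Srebf1, passed the test, beside 7.54% of all genes tested that rose and 6.81% that fell. Srebf2, which encodes the factor of cholesterol synthesis, was at 344, 258 and 191 CPM in PBS and 265, 275 and 215 CPM in WGP. The WGP libraries lay inside the PBS range, and the log2 fold change was -0.07 with an interval of -0.49 to 0.35. Srebf1 (ENSMUSG00000020538, chr11:60199089-60222581), which encodes the factor of fatty acid synthesis and is itself a known LXR target, was at 72.6, 68.9 and 58.4 CPM in PBS and 98.8, 96.4 and 89.6 CPM in WGP. The groups were well apart and it rose 1.42-fold, from 66.7 ± 7.4 to 94.9 ± 4.79 CPM (SD, n = 3), with a log2 fold change of 0.51, a standard error of 0.15 and an adjusted p of 0.0469 in edgeR. Over the alternatives the adjusted p was 0.0276 to 0.158, above the threshold without PBS replicate 2 or 3 or any 1 WGP library and when libraries were scaled by their totals only (0.132) or tested by limma-voom (0.0534). Insig1, the retention protein of the SREBP complex and itself an SREBP target, was at 112, 81.1 and 72.4 CPM in PBS and 63.0, 60.2 and 44.5 CPM in WGP. Every WGP library was below every PBS library, but the log2 fold change of -0.66 (SE 0.21) had an adjusted p of 0.0623. It passed with library totals only (0.0413), with DESeq2 (0.0388) and without PBS replicate 3 (0.0453).

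The 4 members with the largest log2 fold changes in size, Nr1h3, Soat1, Mylip and Apoe, lay in storage and in the LXR arm. Soat1 (ENSMUSG00000026600, chr1:156424525-156474331), which esterifies free cholesterol for storage in droplets, was at 90.5, 90.9 and 139 CPM in PBS and 295, 338 and 393 CPM in WGP. The lowest WGP library was above the highest PBS library by more than the whole PBS range. The level rose 3.20-fold, from 107 ± 27.9 to 342 ± 49.1 CPM (SD, n = 3), a log2 fold change of 1.68 with a standard error of 0.20 and an adjusted p of 0.000369 in edgeR. Stard4, a soluble carrier of sterols, was at 19.8 to 26.7 CPM in PBS and 21.6 to 26.7 CPM in WGP, with a log2 fold change of 0.13 (SE 0.23).

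Nr1h3 (ENSMUSG00000002108, chr2:91184061-91202834) encodes LXRα, the receptor of macrophages, liver and fat. Its level was 13.5, 7.91 and 17.2 CPM in PBS and 48.2, 55.6 and 51.1 CPM in WGP. The groups were far apart, and the level rose 4.02-fold, from 12.9 ± 4.66 to 51.6 ± 3.72 CPM (SD, n = 3), a log2 fold change of 2.01 with a standard error of 0.28 and an adjusted p of 0.000949 in edgeR. Nr1h2, which encodes the widely expressed LXRβ, was at 178, 144 and 148 CPM in PBS and 151, 155 and 160 CPM in WGP, a log2 fold change of -0.01 with an interval of -0.29 to 0.27. Per kilobase of exon, Nr1h3 stood at 5.11 CPM in PBS and 20.5 in WGP, and Nr1h2 at 46.7 and 46.4. The ratio of Nr1h3 to Nr1h2 per length within a library, which needs no scaling between libraries, was 0.101, 0.0731 and 0.155 in PBS and 0.424, 0.478 and 0.426 in WGP. LXRα mRNA thus remained below LXRβ mRNA in all 6 libraries, with a ratio 4.23-fold higher in WGP. With 3 libraries in each group the two-sided exact permutation test cannot go below 0.1, and it gave p = 0.1 for this ratio.

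Of the 4 LXR targets for efflux, the lipid carrier and receptor degradation, Abcg1 rose, Apoe and Mylip fell and Abca1 did not pass. Among all genes tested 7.54% rose and 6.81% fell. Srebf1, described above among the SREBP genes, is a further known target that rose, but its call was lost under several alternatives. Abcg1 (ENSMUSG00000024030, chr17:31057675-31117988), which passes cholesterol to HDL, was at 58.0, 67.4 and 61.2 CPM in PBS and 140, 116 and 145 CPM in WGP. Both groups were tight and separate, and it rose 2.15-fold, from 62.2 ± 4.77 to 134 ± 15.3 CPM (SD, n = 3), with a log2 fold change of 1.10, a standard error of 0.15 and an adjusted p of 0.000838 in edgeR. Abca1, which loads cholesterol onto lipid-poor apolipoprotein A-I, was at 229, 477 and 549 CPM in PBS and 257, 357 and 237 CPM in WGP. PBS replicate 1 was the lowest of all 6 libraries while the other PBS libraries were the highest, and the log2 fold change was -0.56 with an interval of -1.14 to 0.02 and an adjusted p of 0.265 in edgeR. Without PBS replicate 1, the PBS library with the lowest resident macrophage sum, the log2 fold change was -0.86 and the adjusted p 0.0108, and without both this library and WGP replicate 2 they were -1.06 and 0.000196.

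**Figure D4:**
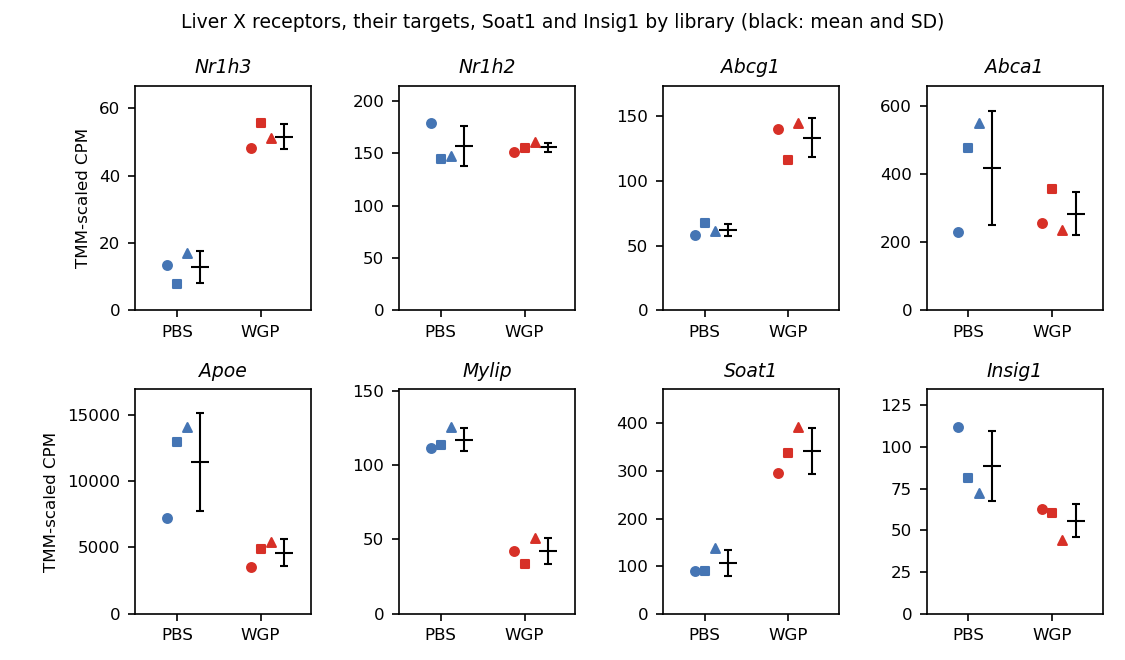
TMM-scaled CPM of the LXRs, their 4 targets, Soat1 and Insig1, with 1 point per library, blue for PBS and red for WGP (circle, square and triangle for replicates 1, 2 and 3), and the mean with SD in black. Nr1h3, Abcg1 and Soat1 were higher in each WGP library, Apoe, Mylip and Insig1 were lower, and Abca1 and Nr1h2 overlapped.

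Apoe (ENSMUSG00000002985, chr7:19696109-19699188), the apolipoprotein that macrophages secrete with cholesterol, had the highest level per kilobase of the 33 genes, and it was at 7251, 12952 and 14104 CPM in PBS and 3495, 4885 and 5428 CPM in WGP. The groups did not overlap, and PBS replicate 1 was the lowest PBS library. Its level fell 2.48-fold, from 11436 ± 3669 to 4603 ± 997 CPM (SD, n = 3), a log2 fold change of -1.31 with a standard error of 0.27 and an adjusted p of 0.00761 in edgeR. Per kilobase it went from 5349 to 2153 CPM, and from rank 3 to rank 10 among the genes tested. Mylip (ENSMUSG00000038175, chr13:45389742-45412022), the ubiquitin ligase that degrades the LDL receptor, was at 112, 114 and 126 CPM in PBS and 42.1, 33.6 and 50.7 CPM in WGP. The PBS libraries were close to each other and all were far above the WGP libraries. The level fell 2.78-fold, from 117 ± 7.75 to 42.1 ± 8.54 CPM (SD, n = 3), a log2 fold change of -1.47 with a standard error of 0.18 and an adjusted p of 0.00039 in edgeR. Both falls passed under all 15 alternatives, with adjusted p values of at most 0.0387 for Apoe and 0.00331 for Mylip. All 9 resident macrophage, all 10 acinar and all 6 B cell markers fell as well, and 5 of 7 Ly6C-high monocyte markers rose as Soat1, Nr1h3 and Abcg1 did. Over PBS replicates 1, 2 and 3 the resident macrophage sum was 5649, 11210 and 14283 CPM, beside 7251, 12952 and 14104 CPM for Apoe and 112, 114 and 126 CPM for Mylip. The part of these lists in the rises and falls was not tested.

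The 2 efflux pumps and the esterifying enzyme were also set against each other within each library. The ratio of Abcg1 to Abca1 per length was 0.359, 0.201 and 0.158 in PBS and 0.773, 0.463 and 0.865 in WGP, 3.00-fold higher. The ratio of Soat1 to Abca1 was 0.418, 0.202 and 0.268 in PBS and 1.22, 1.00 and 1.75 in WGP, 4.55-fold higher. The ratio of Srebf1 to Srebf2 was 0.270, 0.340 and 0.389 in PBS and 0.476, 0.447 and 0.531 in WGP, 1.47-fold higher. None of the ratios overlapped between groups, and each had the smallest two-sided p that an exact permutation test of 3 against 3 allows, 0.1, also after adjustment over the 4 ratios, which were chosen after the values were seen.

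None of the 5 fatty acid synthesis genes passed the test. Of all genes tested 7.54% rose and 6.81% fell, so none of 5 is near the background. Acly, which makes cytosolic acetyl-CoA from citrate, was at 255, 212 and 263 CPM in PBS and 306, 334 and 267 CPM in WGP, separate groups with a log2 fold change of 0.31 (SE 0.15) and an adjusted p of 0.230 in edgeR. Fasn, the fatty acid synthase and a textbook SREBP1 target, was at 111, 72.3 and 66.4 CPM in PBS and 59.0, 52.3 and 52.8 CPM in WGP. All WGP libraries were below all PBS libraries, with a log2 fold change of -0.61 (SE 0.21) and an adjusted p of 0.0845, and of 0.0485 without PBS replicate 3. Scd2, a desaturase that makes monounsaturated fatty acids, was at 69.7, 47.8 and 23.5 CPM in PBS and 65.5, 77.6 and 75.6 CPM in WGP, a log2 fold change of 0.63 (SE 0.32) with an adjusted p of 0.249. PBS replicate 1 overlapped the WGP libraries, and without it the log2 fold change was 1.03 and the adjusted p 0.0328, and without WGP replicate 2 as well they were 0.98 and 0.0372. Elovl6, which elongates palmitate, was at 3.85 to 5.67 CPM in PBS and 6.74 to 8.47 CPM in WGP, and Acaca, the carboxylase that makes malonyl-CoA, at 11.0 to 20.6 CPM and 19.7 to 24.2 CPM. Their adjusted p values were 0.422 and 0.462. The log2 fold change was negative for Fasn and positive for the other 4 genes, and the difference between them was not tested.

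A list of 90 further genes of these pathways was also chosen with earlier results of these data known, and 87 of them were tested. Of these, 14 rose and 6 fell in edgeR at the same adjusted p, with a median log2 fold change of 0.19. Of all genes tested 7.54% rose and 6.81% fell, so the 6 falls among 87 were close to the share of all genes. Without PBS replicate 2 the counts were 6 and 3, without PBS replicate 1 they were 13 and 10, and with DESeq2 they were 19 and 10. The 17 genes of acyl-CoA, triglyceride and lipid droplet handling held 6 that rose and 1 that fell, against 7.54% and 6.81% of all genes, and the share of falls was near that background. Acsl1, which activates long-chain fatty acids, was at 75.8, 81.4 and 73.4 CPM in PBS and 324, 466 and 371 CPM in WGP. The groups were far apart, with a log2 fold change of 2.33 (SE 0.17) and an adjusted p of 1.97e-05 in edgeR. Hilpda, an inhibitor of the lipase encoded by Pnpla2, rose with a log2 fold change of 1.71 (SE 0.33), Dgat2, which makes triglyceride, with 1.49 (SE 0.33), Plin2, the coat of lipid droplets, with 0.88 (SE 0.22), Lipe, a lipase, with 0.82 (SE 0.20) and Pnpla2 with 0.48 (SE 0.13). Lpin1, a phosphatidate phosphatase, fell by 1.23 on the log2 scale. The other 10 genes of the list did not pass the test, among them the droplet coat gene Plin3 and the triglyceride enzyme Dgat1, with log2 fold changes of -0.25 (SE 0.17) and -0.04 (SE 0.34).

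Of the 18 tested genes of cholesterol uptake, lysosomal release and storage, 5 rose and 1 fell, against the same 7.54% and 6.81%, with the share of falls again near the background. Olr1, a receptor for oxidized LDL, was at 1.53, 8.93 and 7.72 CPM in PBS and 56.6, 41.6 and 31.0 CPM in WGP, a log2 fold change of 2.83 (SE 0.54) with an adjusted p of 0.00581 in edgeR. Msr1, scavenger receptor A, rose with a log2 fold change of 1.27 (SE 0.30), whereas Cd36, a receptor for oxidized LDL and fatty acids, was at 501, 874 and 1100 CPM in PBS and 99.4, 244 and 129 CPM in WGP. Cd36 fell by 2.39 on the log2 scale (SE 0.36, adjusted p 0.00151 in edgeR), with PBS replicate 1 again the lowest PBS library. Npc2, which hands cholesterol out of the lysosome, and Osbp, an oxysterol-binding transporter, rose with log2 fold changes of 0.71 (SE 0.14) and 0.62 (SE 0.17). Soat2, the paralog of Soat1, rose with a log2 fold change of 1.63 (SE 0.48, adjusted p 0.0461) from 2.39 to 4.92 CPM to 8.33 to 14.6 CPM. The PBS levels of Soat2 rest on 189, 93 and 142 counts, and its adjusted p stood close to the threshold.

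In the remaining lists the calls are read against the same 7.54% and 6.81%, and 0 or 1 call in 12 or 15 genes is close to those shares. Of the 10 tested efflux and lipoprotein genes, Lpcat3, a phospholipid-remodelling enzyme and known LXR target, rose with a log2 fold change of 1.04 (SE 0.23), while Pltp, a phospholipid transfer protein and also a known LXR target, and Lpl, lipoprotein lipase, fell by 1.41 and 0.74 on the log2 scale. Among 12 tested oxysterol enzymes and LXR partners, Ppard, a fatty acid-sensing receptor, rose with 0.67 (SE 0.16). Of 15 further fatty acid genes Fads1, the delta-5 desaturase, fell by 1.19 on the log2 scale and Elovl1, an elongase of very long chains, rose with 0.67 (SE 0.16). Of 15 genes of sterol synthesis and SREBP processing, none rose and Acat1, the mitochondrial thiolase, fell by 0.84 on the log2 scale, and Scap and Insig2, the partners of the SREBPs, had log2 fold changes of 0.05 (SE 0.22) and 0.12 (SE 0.28).

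**Figure D5:**
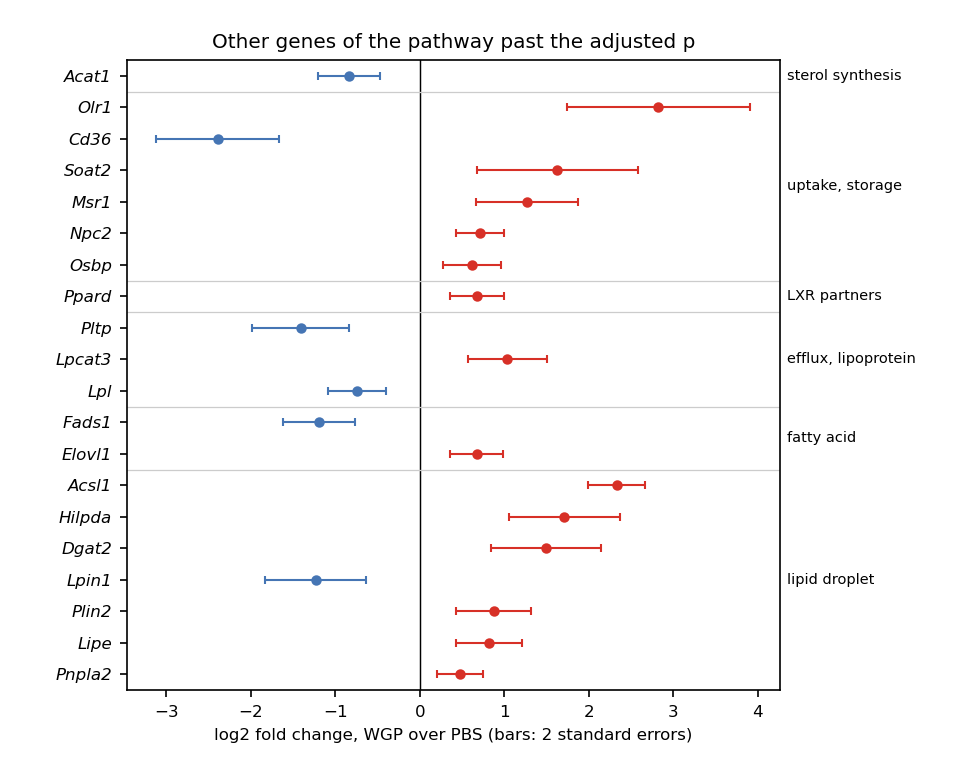
Log2 fold change of WGP over PBS, with bars of 2 standard errors, for the 20 of 87 further pathway genes with an edgeR adjusted p of at most 0.05, grouped by list, red for higher and blue for lower. Of the 7 lipid droplet genes shown 6 are red, and the uptake list holds both Olr1 at 2.83 and Cd36 at -2.39.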

How the data were processed

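Poly-A RNA of sorted CD45+CD11b+ pancreatic cells was sequenced in 3 PBS and 3 WGP libraries. The authors aligned reads to mm10 (GRCm38.p6) with STAR 2.6 and deposited raw counts per Ensembl gene from HTSeq 0.10.0, without normalization. The table holds 21780 features, of which 21754 matched GENCODE vM21 and 21700 of these are protein-coding, so it leaves most other biotypes out. Annotation release, strand setting and duplicate handling are not given in the sources used here, so overlapping and antisense genes are uncertain.

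Counts were tested for WGP against PBS with edgeR 4.0.16 (R 4.3.3, quasi-likelihood, TMM) over the 14429 protein-coding genes (GENCODE vM21) whose RLE-normalized counts added up to 10 or more. A gene passed if its p, adjusted by Benjamini and Hochberg's method, was no higher than 0.05, and was called if the log2 fold change was also 1 or more in size. The standard error is the absolute log2 fold change over the square root of F, and intervals are 2 standard errors to each side. Low counts clustered at 17.9 to 41.3 in the libraries instead of at 1, so counting intervals from raw counts are not given. The script was tested on simulated data.

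The members and lists were chosen with earlier results of these data known. All members are named, and of the other lists the genes past the test, apart from Scap, Insig2, Plin3 and Dgat1, which were named after their values were seen. Alternatives were RLE size factors, library totals only, DESeq2 1.42.0, limma-voom (limma 3.58.1), 3 filters, a replicate block, 6 fits that each leave out 1 library and, added after seeing the data, PBS replicate 1 and WGP replicate 2 left out together. Ratios were tested with scipy 1.17.1.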

Additional observations from a re-analysis of the deposited data

How the results depend on the processing

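Of 495 log2 fold changes of members under 15 alternatives, 433 kept direction and side of the threshold, 24 no longer passed, 9 newly passed and 29 changed sign. The last belonged to 9 genes that did not pass, with log2 fold changes of -0.16 to 0.31 in the reported fit. With library totals only, which moved the median of all genes from -0.05 to -0.16, Idi1 was at -0.0154, Cyp51 at -0.0935 and Sc5d at -0.0817. Lss was at 0.0837 with limma-voom and 0.0538 with the replicate block. With PBS replicate 1 and WGP replicate 2 both left out, Cyp51 was at -0.0211, Hsd17b7 at 0.25, Sc5d at -0.31, Dhcr7 at -0.0032, Srebf2 at 0.0907 and Nr1h2 at 0.0911. Leaving out 1 library gave -0.45 to 0.18 for Mvk, -0.17 to 0.30 for Idi1, -0.44 to 0.26 for Lss, -0.32 to 0.33 for Cyp51, -0.25 to 0.14 for Hsd17b7, -0.21 to 0.17 for Sc5d, -0.26 to 0.16 for Srebf2 and -0.0675 to 0.0907 for Nr1h2. It gave 3 to 7 members that rose, 2 to 4 that fell, 3 to 6 called higher, 6 to 13 other pathway genes that rose and 3 to 10 that fell. These fits hold 1 sample fewer, and the cause was not tested further. Other pathway genes that fell were 10 with DESeq2 and 11 with both libraries left out. CCAAT on the strand of the gene only was in 11 of 27 member windows and in 23.7% of all genes. Same-numbered libraries correlated at 0.0356, -0.0664 and 0.0554 in their deviations, so the numbers only name them. The replicate block gave 6 members that rose and 3 that fell, with Srebf1 no longer past the threshold (adjusted p 0.0658) and Insig1 past it (0.0357).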
